A study of Mus musculus with 39 samples.

Results

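The genes described here build and anchor the actin cytoskeleton. They were 45 named genes, chosen by symbol from the 24062 genes in the count files, and all 45 were found and passed the filter on low counts. RNA had been sequenced from 39 samples of CD68-rich plaque, collected by laser capture from 6 µm frozen sections of the aortic root. The mice were female Apoe-/- animals of the strain B6.129P2-Apoe<tm1Unc>, which lack apolipoprotein E and develop atherosclerosis. A high-cholesterol diet was fed from 8 weeks of age, for 12 weeks before treatment and on through it, so treatment came at 20 weeks. By label, 10 samples were PBS, 10 TRAF6i-HDL, 10 mTORi-HDL and 9 S6K1i-HDL. Each mouse had 4 intravenous injections within 7 days, with collection 24 hours later.

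Each of the 3 inhibitors was packed into particles of high-density lipoprotein (HDL), and the drug dose was 5 mg/kg. In the protocol the treatments carry the names rapamycin-HDL, PF-4708671-HDL and CD40-HDL. TRAF6 relays signals from CD40, rapamycin inhibits mTOR, and PF-4708671 inhibits S6K1, a kinase downstream of mTOR. The protocol also named an empty particle that no sample here carried, so inhibitor and carrier cannot be told apart in any comparison with PBS. The labels did not say whether replicates were separate animals, so the p-values measure only the spread between these samples. A captured region holds several cell types, and in such bulk samples fewer cells of a type and less RNA per cell cannot be told apart.

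Cells crawl, spread and engulf particles by polymerising actin. The Arp2/3 complex starts branched filaments when WASP or WAVE proteins switch it on, while cofilin and gelsolin sever old filaments and coronins help to recycle them. Talin and kindlin bind the tails of integrins and switch these receptors on, and vinculin, filamin and zyxin tie the resulting focal adhesions to actin bundles. Plaque macrophages use this machinery to move and to take up dying cells and lipoprotein aggregates, and smooth muscle cells use it to contract and to hold the fibrous cap.

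Many actin genes are textbook targets of serum response factor (SRF), which binds the CArG box, a run of A and T bases between CC and GG. The box was searched by name in RefSeq promoter windows of GRCm38.p6, which run from 250 bases before to 50 bases after each start. It reads alike on both strands. It was found in 535 of 32851 windows (1.63%). Of the 45 genes, 38 had at least 1 window, 48 windows in all, and 4 of the 48 held the box, 1 each in Actg1 (chr11:120348446-120348745, - strand), Arpc4 (chr6:113377863-113378162, + strand), Fermt2 (chr14:45530016-45530315, - strand) and Vcl (chr14:20929148-20929447, + strand). Their windows are shown because they are the members that carry the box, which is in capitals.
Actg1: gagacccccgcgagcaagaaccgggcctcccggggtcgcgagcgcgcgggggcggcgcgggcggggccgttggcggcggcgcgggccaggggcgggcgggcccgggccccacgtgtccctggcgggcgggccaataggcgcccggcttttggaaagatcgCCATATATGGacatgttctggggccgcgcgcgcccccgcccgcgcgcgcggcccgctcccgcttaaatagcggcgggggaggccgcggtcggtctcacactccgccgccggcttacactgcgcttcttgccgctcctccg
Arpc4: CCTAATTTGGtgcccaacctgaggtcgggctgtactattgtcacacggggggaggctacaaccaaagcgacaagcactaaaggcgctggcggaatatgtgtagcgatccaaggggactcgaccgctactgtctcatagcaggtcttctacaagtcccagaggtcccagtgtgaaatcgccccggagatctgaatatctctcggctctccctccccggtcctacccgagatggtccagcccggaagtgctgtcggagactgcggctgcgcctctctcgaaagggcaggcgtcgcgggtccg
Fermt2: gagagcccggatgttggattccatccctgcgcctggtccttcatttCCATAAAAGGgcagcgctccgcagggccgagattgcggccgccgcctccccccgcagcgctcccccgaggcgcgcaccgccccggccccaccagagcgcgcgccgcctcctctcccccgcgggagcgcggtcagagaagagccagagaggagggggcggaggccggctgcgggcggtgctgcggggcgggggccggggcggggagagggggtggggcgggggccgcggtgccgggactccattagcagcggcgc
Vcl: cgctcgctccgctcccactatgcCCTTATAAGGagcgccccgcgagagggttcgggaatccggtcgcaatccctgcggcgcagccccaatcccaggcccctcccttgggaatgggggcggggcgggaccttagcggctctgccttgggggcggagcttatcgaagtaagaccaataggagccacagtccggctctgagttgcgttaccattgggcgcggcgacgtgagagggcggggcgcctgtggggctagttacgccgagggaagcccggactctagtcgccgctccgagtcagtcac
The Arpc4 box lay at the first base of its window, and the Actg1 box began 90 bases before the start. Of these 4 genes, Arpc4 passed a test in one comparison below, and Actg1, Fermt2 and Vcl passed none. A match of letters is a description of the window and does not show that the factor binds there.

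Depth ranged from 50091 to 6833491 counts in genes per library. The libraries of PBS replicate 9, TRAF6i-HDL replicate 7 and S6K1i-HDL replicate 1 were under 200000. The ribosomal RNA precursor Rn45s took 2.28 to 30.0% of counts in PBS and 14.5 to 47.5% in S6K1i-HDL, where 7 of 9 libraries lay above every PBS library. In mTORi-HDL 1 of 10 libraries lay above that range, and in TRAF6i-HDL 0 of 10 did. Of the macrophage markers 15 of 15 in the files passed the count filter, as did 12 of 13 endothelial, 9 of 10 fibroblast and 9 of 12 smooth muscle markers. The fibroblast markers summed to 8674 ± 2236 CPM in PBS (SD, n = 10). The summed level of the macrophage markers was 5574 to 29354 CPM (read counts scaled by library size) in PBS and 10476 to 16423 CPM in S6K1i-HDL.

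As a group the cytoskeletal genes were abundant RNAs in this plaque. Over all 39 libraries their median level was 6.80 on the log2 CPM scale against 4.09 for all 10411 tested genes. Together they took 3.50% ± 1.05 of the counts in PBS (SD, n = 10), 3.38% ± 0.818 in TRAF6i-HDL (n = 10), 3.15% ± 0.954 in mTORi-HDL (n = 10) and 2.64% ± 1.02 in S6K1i-HDL (n = 9). These totals include Rn45s, whose mean share was 13.0% in PBS and 37.0% in S6K1i-HDL. On the scaled log2 CPM scale the mean of the 45 genes was 6.69 ± 0.30 in PBS and 6.89 ± 0.07 in S6K1i-HDL (SD), so the lower share was not a lower scaled level. Their spread between PBS libraries, a median SD of 0.46 on the log2 CPM scale, was smaller than the 0.78 of all tested genes. In 18 of the 45 genes every library held at least 10 counts.

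Per kilobase of transcript, Actb led in PBS, with 9407 ± 3480 CPM per kb (SD, n = 10). It encodes beta-actin. Tmsb4x, whose product thymosin beta-4 holds actin monomers in reserve, followed at 5497 ± 2101 CPM per kb, and 9 of 10 PBS libraries had Actb above it. Next came Actg1, encoding gamma-actin, at 370.7 ± 99.3 CPM per kb, and Pfn1, encoding the monomer-binding protein profilin, at 315.1 ± 90.0 CPM per kb. These neighbours, like Arpc2 at 253.7 and Msn at 251.4 CPM per kb behind them, lay within each other's spread. Lowest were Ptk2, encoding focal adhesion kinase, at 4.04 CPM per kb, Enah at 1.69 and Tln2 at 1.21 CPM per kb. Tln1 stood at 17.7 CPM per kb, well above its paralogue Tln2. Among the kindlins, Fermt3, the form of blood cells, stood at 9.71 ± 4.36 CPM per kb and Fermt2, the widely expressed form, at 6.43 ± 3.32 CPM per kb.

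**Figure D1:**
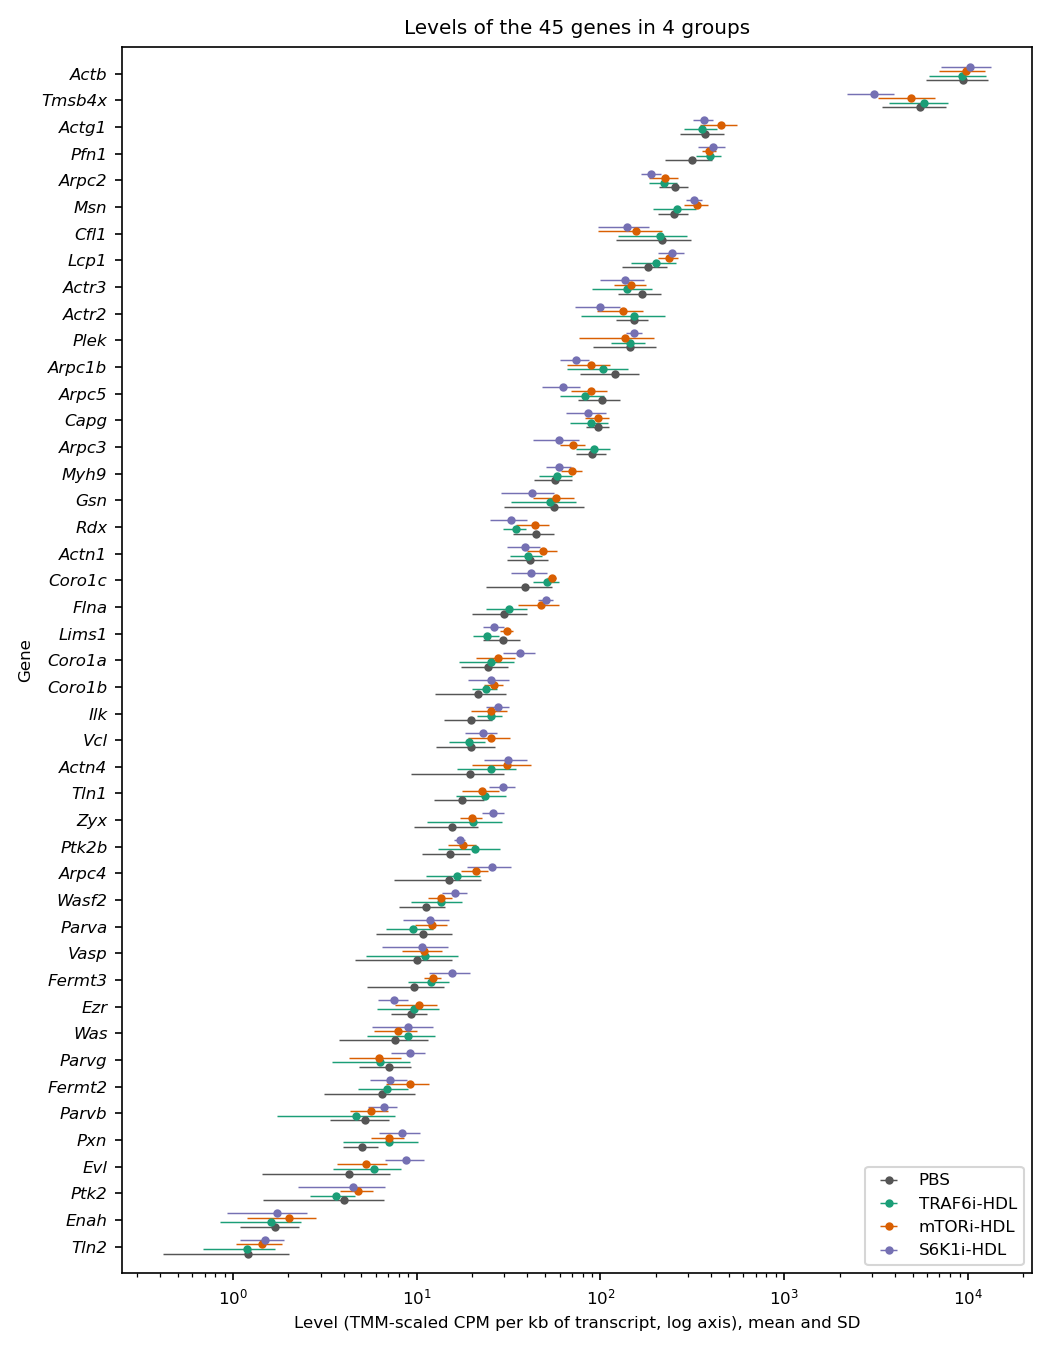
Levels of the 45 genes in PBS (n = 10), TRAF6i-HDL (n = 10), mTORi-HDL (n = 10) and S6K1i-HDL (n = 9), as mean and SD of TMM-scaled CPM per kilobase on a log axis, ordered by PBS. Actb and Tmsb4x stand far above the rest, Tln2 and Enah are lowest, and most genes differ far more from each other than between groups.

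In S6K1i-HDL plaque, 9 of the 45 genes were higher than in PBS and 7 lower, with most of the lower ones in the Arp2/3 group. Of the 9 genes of the Arp2/3 complex and its activators 5 fell, Arpc1b, Arpc2, Arpc3, Arpc5 and Actr2, and so did Tmsb4x and Rdx. The 9 that rose were Tln1 and Fermt3 (2 of the 10 genes that link integrins to actin), Zyx, Pxn, Evl, Flna, Wasf2, Arpc4 and Coro1a. All changes were under 2-fold. These 16 passed at an adjusted p under 0.05 (edgeR's quasi-likelihood test, Benjamini-Hochberg over 10411 genes). Of all tested genes 11.9% passed, 5.46% higher and 6.47% lower. With the size factors of DESeq2 in place of TMM, 744 genes were higher and 533 lower, and 13 of the 45 genes were higher and 7 lower. With the share of counts in Rn45s as a covariate 0 of the 45 passed (38 of all genes), and with GC and length offsets 0 were higher and 2 lower, Arpc1b and Arpc5, so 14 of the 16 calls held in neither fit. The median log2 fold change of the 45 genes was 0.10, beside 0.00 for all tested genes. These medians were 0.14 and 0.05 with DESeq2's size factors, and 0.02 and 0.00 with Rn45s share as a covariate. With GC and length offsets they were -0.01 and -0.06. The S6K1i-HDL and PBS libraries overlapped in each of the 45 genes, while 0.442% of all genes had groups that did not overlap.

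Flna encodes filamin A, which crosslinks actin filaments into nets and ties them to integrins. Its level was 168.2, 201.0 and 374.2 CPM (lowest, median and highest) in PBS and 334.4, 435.1 and 466.03 CPM in S6K1i-HDL. All but one of the S6K1i-HDL libraries, 8 of 9, lay above every PBS library. The log2 fold change was 0.77 ± 0.16 (SE), with an adjusted p of 0.00204 by edgeR. The level of the adhesion protein talin 1, Tln1, was 79.0, 139.1 and 215.5 CPM in PBS and 171.3, 248.2 and 297.9 CPM in S6K1i-HDL. Again 8 of 9 treated libraries lay above the PBS range, and the log2 fold change was 0.74 ± 0.17 (adjusted p 0.00337, edgeR).

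Zyx encodes zyxin, which gathers at adhesions under tension and brings in Ena/VASP proteins. Its level was 12.6, 53.5 and 82.5 CPM in PBS and 62.7, 82.7 and 101.2 CPM in S6K1i-HDL. Every treated library was above the PBS mean, 5 of 9 were above the PBS range, and the log2 fold change was 0.63 ± 0.17 (adjusted p 0.0105, edgeR). Evl, one of those Ena/VASP proteins that lengthen filaments, was a low-count gene with 0, 11.7 and 18.4 CPM in PBS and 13.0, 17.4 and 28.6 CPM in S6K1i-HDL. All 9 treated libraries were above the PBS mean and 4 were above the PBS range. Its log2 fold change was 0.80 ± 0.24 (adjusted p 0.0231, edgeR). Its paralogues Vasp (-0.22 ± 0.22) and Enah (0.10 ± 0.27) did not pass.

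Pxn encodes paxillin, the adaptor of young adhesions. It measured 12.6, 18 and 24.5 CPM in PBS and 15.6, 31.4 and 41.6 CPM in S6K1i-HDL, and 7 of 9 treated libraries were above the PBS range. The log2 fold change was 0.59 ± 0.19 (adjusted p 0.0319, edgeR). Fermt3, kindlin-3, had 0, 26.3 and 37.6 CPM in PBS and 26.3, 41.3 and 55.0 CPM in S6K1i-HDL, with 6 of 9 treated libraries above the PBS range. It changed by 0.52 ± 0.17 (adjusted p 0.0411, edgeR). Other genes of this link did not pass, Ilk, a scaffold kinase, at 0.42 ± 0.15 (adjusted p 0.0545), Vcl, vinculin, at 0.29 ± 0.16 (0.234) and Fermt2 at 0.05 ± 0.21 (0.907).

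The integrin-linking group as a whole had 10 genes, 9 of them with fold changes above 0 (50.3% of all genes) and 2 past the threshold. Its median log2 fold change was 0.36. The crosslinkers and myosin had 1 of 5 past it. In that group Lcp1, encoding the leukocyte bundling protein plastin, stood at 0.43 ± 0.16 (adjusted p 0.0587) and Actn4, an alpha-actinin, at 0.63 ± 0.24 (0.0755). Myh9, encoding the heavy chain of nonmuscle myosin, stood at 0.08 ± 0.14 (0.745).

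The Arp2/3 complex has subunits encoded by Actr2, Actr3, Arpc1b, Arpc2, Arpc3, Arpc4 and Arpc5 in this list. Arpc1b, whose product is the form of its subunit that predominates in blood cells, measured 214.9, 345.1 and 654.0 CPM in PBS and 185.1, 213.9 and 311.3 CPM in S6K1i-HDL. All 9 treated libraries were below the PBS mean and 5 were below the PBS range. The log2 fold change was -0.72 ± 0.17 (adjusted p 0.00471, edgeR). Arpc5 measured 118.7, 199.1 and 291.8 CPM in PBS and 71.2, 123.5 and 159.0 CPM in S6K1i-HDL, with 4 of 9 treated libraries below the PBS range. Its log2 fold change was -0.67 ± 0.16 (adjusted p 0.00407, edgeR).

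Arpc3 had 50.6, 81.3 and 108.1 CPM in PBS and 34.8, 51.9 and 86.9 CPM in S6K1i-HDL. Of 9 treated libraries 8 were below the PBS mean and 4 below the PBS range, for a log2 fold change of -0.59 ± 0.14 (adjusted p 0.00501, edgeR). Actr2, one of the actin-related proteins that seed the new filament, had 404.4, 532.4 and 740.7 CPM in PBS and 251.9, 338.7 and 530.8 CPM in S6K1i-HDL. There 6 of 9 treated libraries lay below the PBS range, and the log2 fold change was -0.62 ± 0.19 (adjusted p 0.0268, edgeR). Arpc2, at the core of the complex, had 298.5, 348.8 and 504.6 CPM in PBS and 218.3, 260.9 and 326.7 CPM in S6K1i-HDL. In Arpc2 7 of 9 treated libraries were below the PBS range, and the log2 fold change was -0.43 ± 0.13 (adjusted p 0.0235, edgeR).

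Actr3 and Arpc4 were not called lower. Actr3 also had a negative log2 fold change, -0.32 ± 0.17, but did not pass (adjusted p 0.206, edgeR). Whether its change differed from those of the called subunits was not tested. Arpc4 rose, from 12.6, 28.8 and 65.3 CPM in PBS to 32.4, 58.2 and 87.0 CPM in S6K1i-HDL. In it 3 of 9 treated libraries were above the PBS range, and the log2 fold change was 0.59 ± 0.18 (adjusted p 0.0250, edgeR). In GENCODE M21, exons of Arpc4 overlap those of Ttll3 on the same strand, so reads there cannot be given to one gene. The longest exon overlap was 283 bases, and the lengths below are also of the longest exon overlap. Arpc1b overlaps Pdap1 on the other strand (931 bases), and the strand setting of the counting was not given in the sources used here. Of the other called genes, shorter overlaps with a gene on the other strand exist for Tln1 (Creb3, 91 bases), Zyx (Epha1, 156 bases), Evl (Degs2, 278 bases) and Fermt3 (Trpt1, 89 bases). Genes that were not called have such overlaps too, among them Vcl (Ap3m1, 2090 bases), Ilk (Taf10, 413 bases) and Actn4 (Capn12, 316 bases).

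Of the activators, Wasf2, encoding the WAVE protein that drives sheet-like protrusions, had 30.9, 62.1 and 84.2 CPM in PBS and 71.2, 89.4 and 116.8 CPM in S6K1i-HDL. For Wasf2 6 of 9 treated libraries were above the PBS range, and the log2 fold change was 0.56 ± 0.16 (adjusted p 0.0160, edgeR). Was, the blood-cell activator of the same complex, stood at -0.02 ± 0.22 (0.969). Coro1a, the leukocyte coronin, had 25.3, 42.0 and 65.0 CPM in PBS and 41.7, 64.9 and 82.6 CPM in S6K1i-HDL, with 4 of 9 above the PBS range. It changed by 0.51 ± 0.17 (adjusted p 0.0408, edgeR), and Coro1b (0.07 ± 0.15) and Coro1c (0.08 ± 0.15) did not pass.

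Tmsb4x had 1706, 4808 and 8592 CPM in PBS and 1660, 2487 and 4113 CPM in S6K1i-HDL. All 9 treated libraries were below the PBS mean, but only 1 was below the lowest PBS library. The log2 fold change was -0.83 ± 0.22 (adjusted p 0.0108, edgeR). The other monomer genes did not pass. Cfl1, cofilin, stood at -0.62 ± 0.23 (adjusted p 0.0638), Pfn1 at 0.36 ± 0.14 (0.0664), Actb at 0.12 ± 0.24 (0.798) and Actg1 at -0.03 ± 0.15 (0.916).

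Genes such as Tmsb4x, Actb, Actg1, Cfl1 and Pfn1 have processed copies in the genome, and reads that fit several places may have been left out. Reads with several alignments made up 13.1 to 17.6% of all reads tallied in a file, assigned to a gene or not, in PBS and 16.6 to 21.6% in S6K1i-HDL. Their part in the Tmsb4x result was not tested.

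Rdx encodes radixin, which with ezrin (Ezr) and moesin (Msn) joins actin to the cell membrane. It had 134.9, 183.5 and 303.5 CPM in PBS and 92.7, 137.7 and 201.9 CPM in S6K1i-HDL. Of 9 treated libraries 8 were below the PBS mean and 3 below the PBS range, for a log2 fold change of -0.46 ± 0.14 (adjusted p 0.0289, edgeR). Its relatives Ezr (-0.31 ± 0.17, adjusted p 0.239) and Msn (0.36 ± 0.14, 0.0845) did not pass. The difference between Rdx and Msn was not tested.

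Leaving out each of the 39 libraries in turn, the calls of Flna, Tln1, Zyx, Wasf2, Tmsb4x, Arpc1b, Arpc3 and Arpc5 held in every fit. The number of genes called ran from 10, without PBS replicate 3 or without S6K1i-HDL replicate 4, to 22, without PBS replicate 10. The Evl call was lost without S6K1i-HDL replicate 2 (adjusted p 0.0640) and the Arpc2 call without PBS replicate 3 or S6K1i-HDL replicate 4 (up to 0.0681). The Arpc4 call was lost without PBS replicates 1, 3 or 5 or S6K1i-HDL replicates 3, 4 or 6 (up to 0.0572). The Actr2 call was lost without PBS replicates 1 or 3 or S6K1i-HDL replicates 2, 3, 4 or 5 (up to 0.0597). The Rdx call was lost without PBS replicates 3, 5 or 6 or S6K1i-HDL replicates 2, 6 or 7 (up to 0.100). Coro1a lost its call without PBS replicates 1, 4, 5, 6 or 8 or S6K1i-HDL replicates 3 to 8 (up to 0.0836). Pxn and Fermt3 lost theirs without PBS replicates 1, 3, 5 or 6 or S6K1i-HDL replicates 2, 3, 4 or 6, Pxn also without replicate 5 and Fermt3 without replicate 8 of S6K1i-HDL (up to 0.0965 and 0.107). Without the 3 shallow libraries 8 genes were higher and 8 lower, 14 of them shared with the 16.

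**Figure D2:**
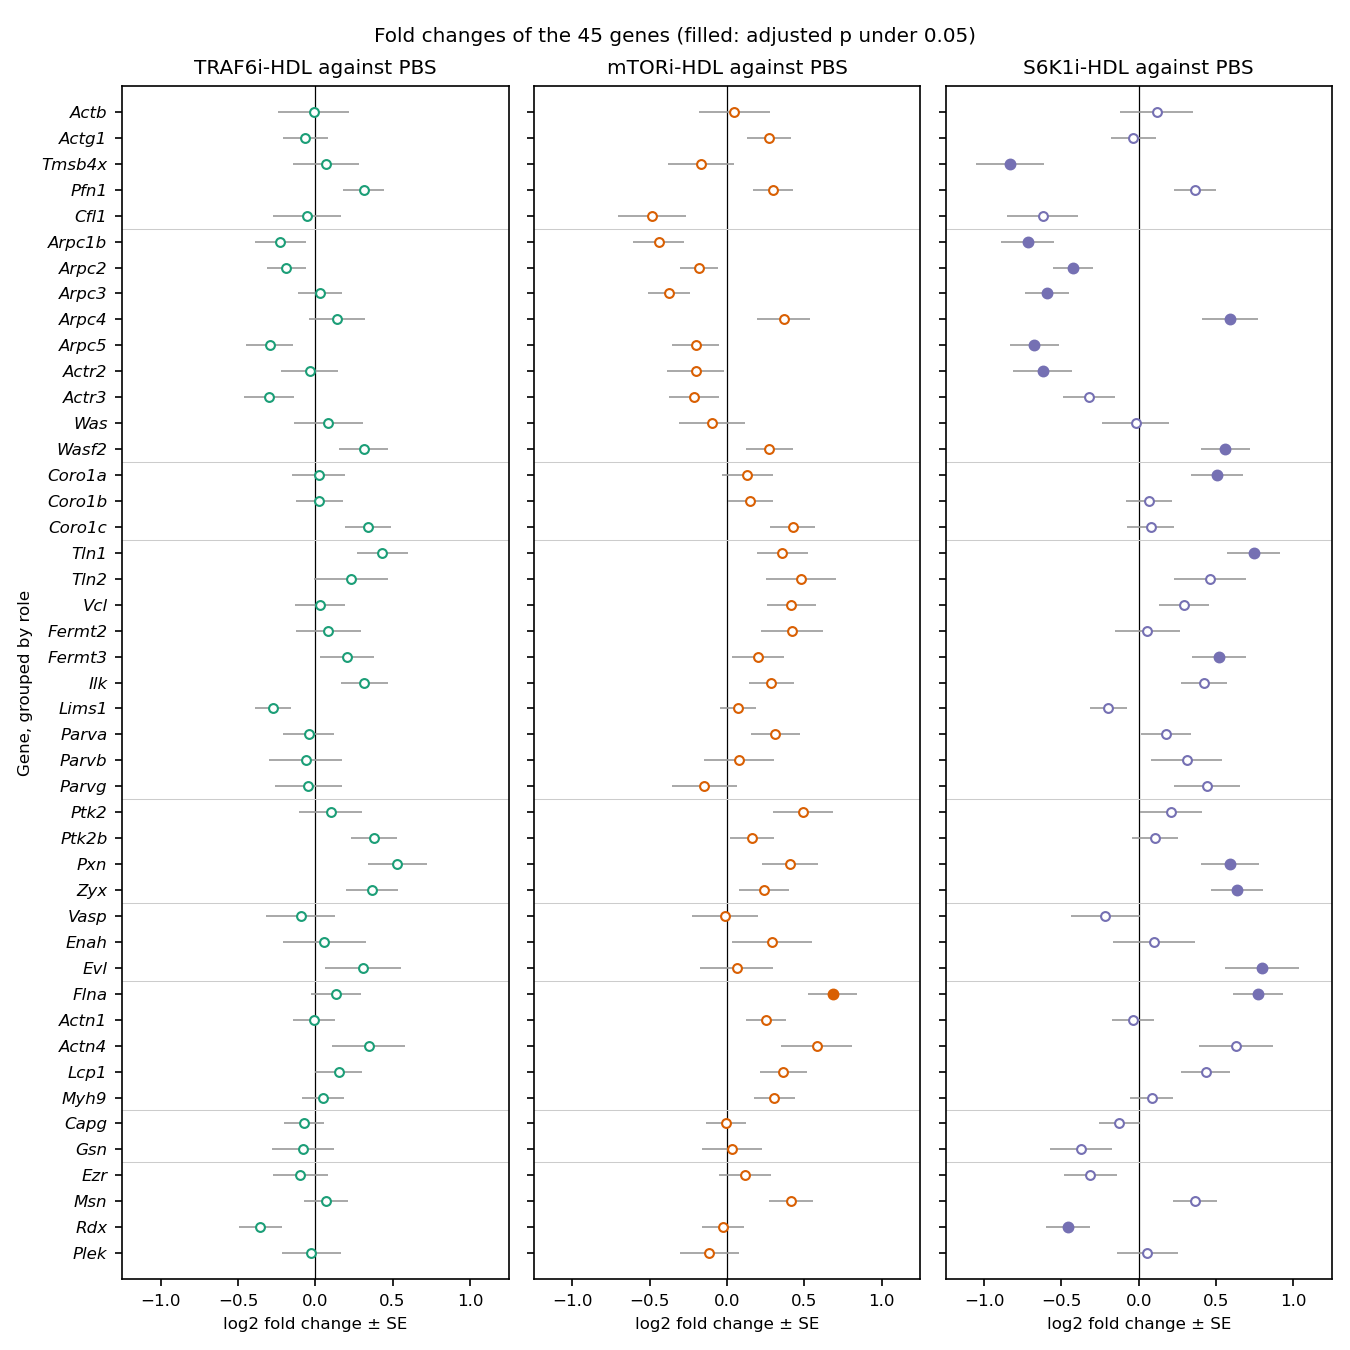
Log2 fold changes of the 45 genes against PBS for each inhibitor, with SE, grouped by role from monomer genes at the top to membrane linkers at the bottom. Filled points passed an adjusted p of 0.05, which 0 genes did in TRAF6i-HDL, 1 (Flna) in mTORi-HDL and 16 in S6K1i-HDL.

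**Figure D3:**
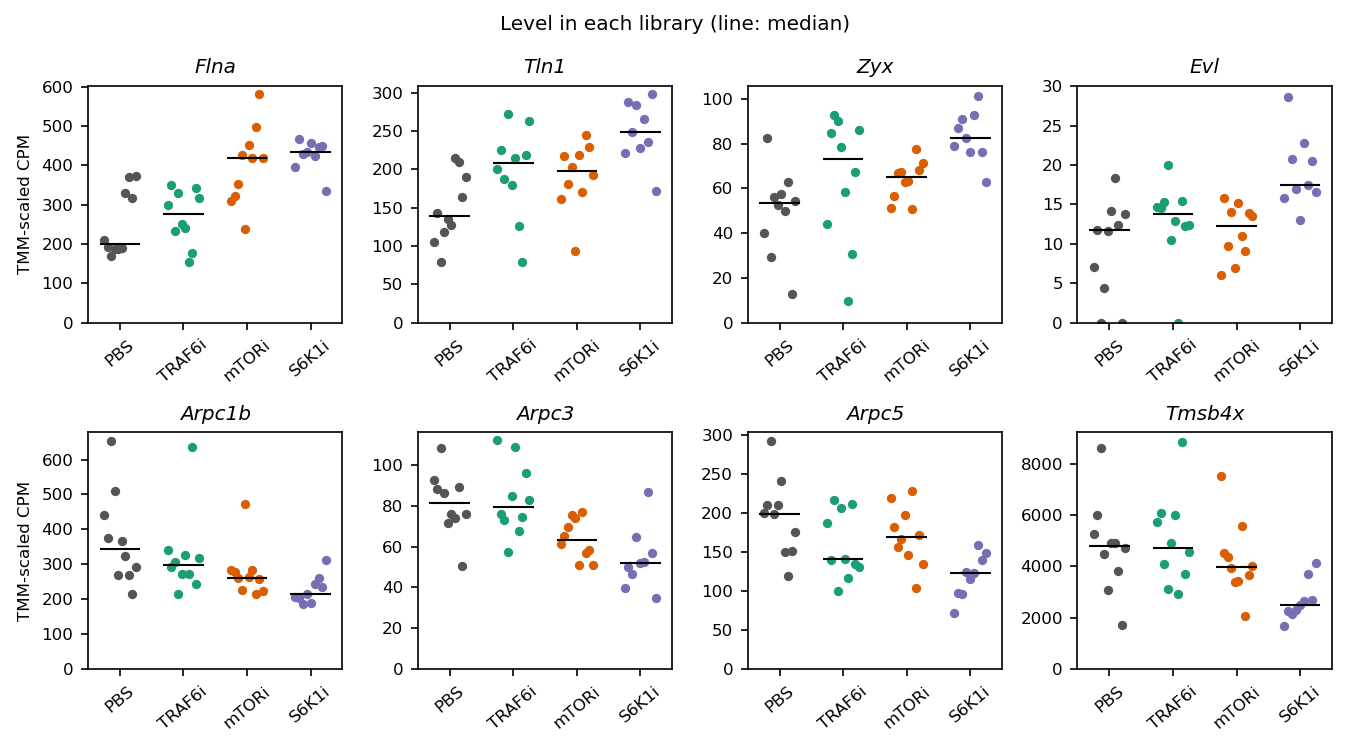
TMM-scaled CPM of 8 genes in each of the 39 libraries, with the median of each group as a line. For Flna and Tln1, 8 of 9 S6K1i-HDL points sit above all PBS points, while the lower row (Arpc1b, Arpc3, Arpc5, Tmsb4x) shows S6K1i-HDL points low but overlapping PBS.

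The genes that rose and fell also differed in base composition. The 9 that rose had transcripts of 53.1 to 61.0% GC (median 57.0%), and the 7 that fell had 40.3 to 52.5% (median 46.6%), taking the longest protein-coding transcript in GENCODE M21. The first 120 coding bases of Rdx and Evl are shown as examples of a GC-poor and a GC-rich message, with the start codon in capitals.
Rdx: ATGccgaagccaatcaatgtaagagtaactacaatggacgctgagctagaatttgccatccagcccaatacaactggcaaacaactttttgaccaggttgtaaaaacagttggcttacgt
Evl: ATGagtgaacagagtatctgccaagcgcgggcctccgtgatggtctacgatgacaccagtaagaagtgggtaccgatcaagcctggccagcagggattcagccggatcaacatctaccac
The stretch shown was 42.5% GC in Rdx and 55.0% GC in Evl.

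The same gradient ran through all genes. The 9969 tested genes with a matched transcript were ranked and cut into 5 groups of like size. In the GC-poorest group 0.903% were called higher in S6K1i-HDL and 9.98% lower. In the GC-richest group, 14.1% were higher and 2.26% lower. Transcript length showed a like pattern, with 15% of the shortest group lower against 2.36% of the longest. The GC-richest group held 16 of the 45 genes, of which 6 rose and 0 fell. The 2 GC-poorest groups held 11, of which 5 fell and 0 rose.

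With offsets that level GC content and length between libraries, 0 of the 45 genes were called higher and 2 lower, Arpc1b at -0.91 ± 0.22 (adjusted p 0.0162) and Arpc5 at -0.51 ± 0.14 (0.0302). All 9 genes that had risen stayed above 0, with a median log2 fold change of 0.29 in place of 0.59. Flna stood at 0.34 ± 0.15 (adjusted p 0.177) and Tln1 at 0.21 ± 0.14 (0.397). All 7 that had fallen stayed below 0, at a median of -0.45 in place of -0.62. With the share of Rn45s as a covariate, 0 genes were called in either direction, and Flna stood at 0.24 ± 0.15 (adjusted p 0.542) and Arpc1b at -0.09 ± 0.14 (0.869). Of the 9 genes that had risen 7 stayed above 0 in that fit, with a median of 0.24 over the 9. All 7 that had fallen stayed below 0, at a median of -0.15. Among these 7, Arpc3 kept most of its size there, at -0.48 ± 0.17 (adjusted p 0.207). Since most S6K1i-HDL libraries lay above the PBS range of Rn45s, treatment and Rn45s share cannot be told apart for these genes.

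**Figure D4:**
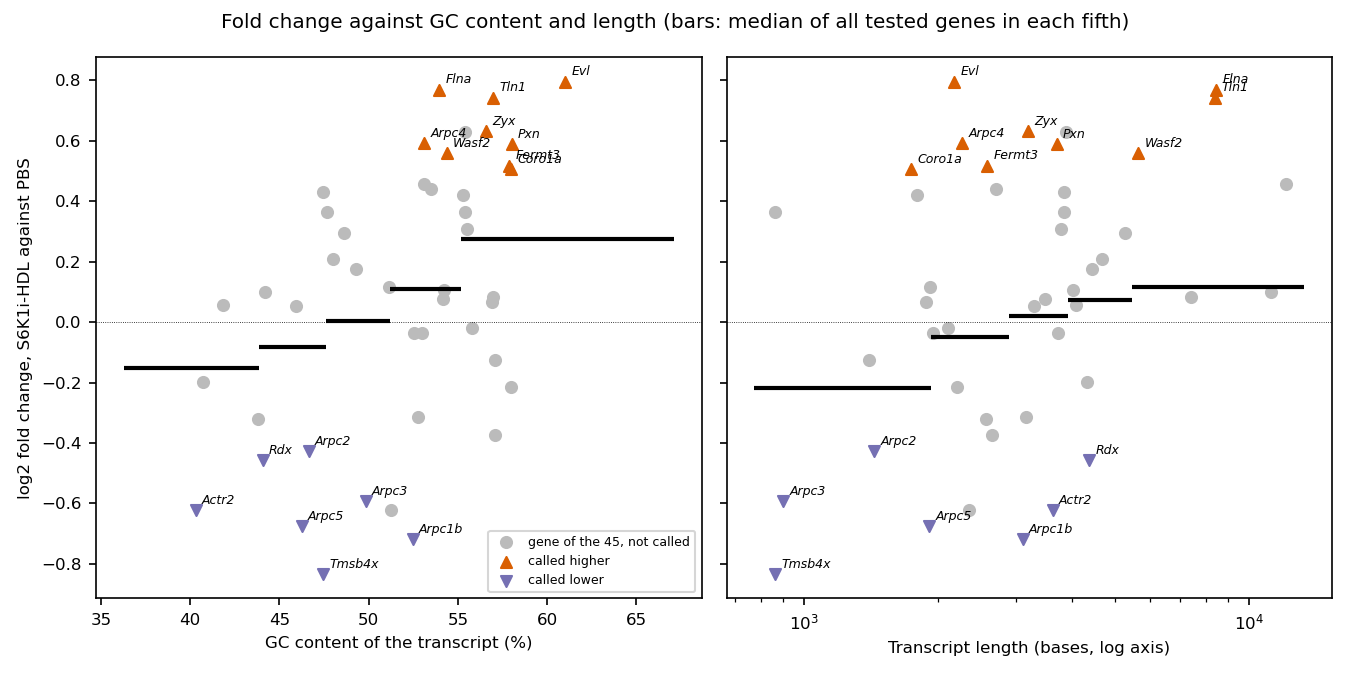
Log2 fold change of the 45 genes in S6K1i-HDL against PBS by GC content (left) and length (right, log axis) of the longest protein-coding transcript. Triangles mark genes that passed, grey points those that did not, and black bars the median of all tested genes in each of 5 groups of like size, which run from -0.15 to 0.27 over GC content and from -0.22 to 0.12 over length.

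Markers of other cell types moved in the same comparison. Smooth muscle markers summed to 382 ± 250 CPM in PBS (SD, n = 10; range 117 to 834) and 598.5 ± 221 CPM in S6K1i-HDL (n = 9; range 345 to 1050), and 2 of 9 tested markers were higher, with a median log2 fold change of 0.77. None of the 12 listed markers was at 0 in every library of a group. Macrophage markers summed to 19371 ± 6570 CPM in PBS and 13760 ± 1727 CPM in S6K1i-HDL, and 0 of 15 were higher and 2 lower, Cd14 and Ctss. Their median log2 fold change was only -0.04, with 6 above 0 and 9 below. Of 12 endothelial markers 1 (Eng) was higher, but 7 lay below 0 and 5 above, with a median log2 fold change of -0.18. The endothelial sum was 692 ± 161 CPM against 701 ± 129 CPM in PBS. Of 9 fibroblast markers 1 (Dpt) was lower, and 7 lay below 0 and 2 above, with a median of -0.11. The part of macrophages in the lower Arp2/3 and Tmsb4x levels was not tested. Several adhesion genes, Flna, Vcl and Actn1 among them, are also expressed by smooth muscle, and the part of that cell type in the Flna result was not tested.

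Calls in the wider pathway went in both directions. Of 119 further genes for small GTPases of the cytoskeleton, WAVE partners, myosins, adhesion adaptors and capping proteins, 113 were tested, and 15 were higher and 11 lower in S6K1i-HDL, where 5.46% of all tested genes were higher and 6.47% lower. Their median log2 fold change was 0.08. Over all tested genes, 38 passed with Rn45s share as a covariate, 523 with GC and length offsets and 1922 with limma-voom, beside 1242. Whether the calls of these further genes, here and in the comparisons below, held in such fits was not tested. Among the GTPase regulators, Arhgdia, which holds such GTPases inactive, rose by 0.97 ± 0.16 on the log2 scale (adjusted p 0.000217), and Arhgap1, a GTPase-activating protein, rose by 0.89 ± 0.22 (0.00562). Rock1, a kinase that raises myosin contraction, fell by 0.47 on the log2 scale (SE 0.11, adjusted p 0.00569), with every S6K1i-HDL library (155 to 241 CPM) below every PBS library (247 to 341 CPM). It was the 1 gene of the 113 whose groups did not overlap, beside 0.442% of all genes. Arpc1a, the paralogue of Arpc1b, fell by 1.24 (SE 0.23, adjusted p 0.000640).

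Of 19 tested partners of WAVE and WASP 3 rose and 2 fell, 13 lay below 0, and the median log2 fold change was -0.21. Those that rose included Nckap1l at 0.58 ± 0.13 (adjusted p 0.00296) and Abi3 at 0.70 ± 0.16 (0.00385). The myosin light chain gene Myl12a fell by 0.63 (SE 0.15, adjusted p 0.00558), and Tagln2, a calponin relative, rose by 0.70 (SE 0.16, 0.00322). At adhesions, Tgfb1i1, a paxillin relative, rose by 0.79 (SE 0.20, 0.00595) and the integrin-activating GTPase gene Rap1b fell by 0.69 (SE 0.17, 0.00666).

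In mTORi-HDL plaque Flna was the gene of the 45 that changed. Its level was 237.5, 418.1 and 580.9 CPM (lowest, median and highest), against 168.2, 201.0 and 374.2 CPM in PBS. Of 10 treated libraries 9 were above the PBS mean and 6 were above the PBS range. The log2 fold change was 0.68 ± 0.16 (adjusted p 0.0142, edgeR), and 1.64% of all tested genes passed. The change held without each library in turn (adjusted p 0.00317 to 0.0389 over 39 fits). It did not pass with Rn45s share as a covariate (0.35 ± 0.13, adjusted p 0.296), with detected genes as a covariate (0.58 ± 0.16, 0.0676) or with GC and length offsets (0.30 ± 0.15, 0.300).

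The median log2 fold change of the 45 genes in mTORi-HDL was 0.16, beside 0.01 for all tested genes, and 31 of 45 were above 0, where 51% of all tested genes were. This median depended on the setting. It was 0.20 with limma-voom (all tested genes 0.01) and 0.09 with Rn45s share as a covariate (0.01). With GC and length offsets it was 0.03 (-0.05). Of the genes next in rank, Msn stood at 0.41 ± 0.14 (adjusted p 0.0995), Coro1c at 0.42 ± 0.15 (0.102), Vcl at 0.42 ± 0.16 (0.143), Ptk2 at 0.49 ± 0.19 (0.161) and Actn4 at 0.58 ± 0.23 (0.173). Arpc3 (-0.38 ± 0.14, 0.125) and Arpc1b (-0.44 ± 0.16, 0.136) lay below 0. None of these passed. Actb stood at 0.05 ± 0.23, Actg1 at 0.27 ± 0.14, Tmsb4x at -0.17 ± 0.21 and Arpc2 at -0.18 ± 0.12. The values were 0.36 ± 0.16 for Tln1, 0.42 ± 0.20 for Fermt2, 0.20 ± 0.17 for Fermt3, 0.29 ± 0.14 for Ilk, 0.31 ± 0.13 for Myh9, 0.36 ± 0.15 for Lcp1 and 0.13 ± 0.16 for Coro1a.

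From the further pathway genes, 0 of 113 were higher and 2 lower in mTORi-HDL, where 1.64% of all genes passed, Aif1, a macrophage protein that bundles actin (-1.01 ± 0.22, adjusted p 0.00931), and Arpc1a (-0.94 ± 0.22, 0.0170). The endothelial markers Flt1 and Eng were higher, 2 of 12 tested, and the endothelial sum was 1019 ± 141 CPM (n = 10; range 723 to 1190) against 701 ± 129 CPM in PBS (n = 10; range 519 to 935). Smooth muscle markers had 0 of 9 called and 8 above 0, with a median log2 fold change of 0.39 and a sum of 558 ± 323 CPM against 382 ± 250 CPM. Macrophage markers had 0 of 15 called and 11 below 0, with a median of -0.35 and a sum of 15298 ± 3734 CPM against 19371 ± 6570 CPM. The part of these cell types in the Flna result was not tested.

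Replicates 5 to 10 of mTORi-HDL are listed apart from the first 4, and the labels do not say why. Against PBS, Flna stood at 0.51 ± 0.20 (adjusted p 0.262) in the first 4 and at 0.81 ± 0.18 (0.0124) in the other 6. The difference between the sets was -0.30 ± 0.22 (adjusted p 0.843). Plek, encoding pleckstrin, a substrate of protein kinase C in platelets and macrophages, was higher in the first 4 than in the other 6 by 1.09 ± 0.23 (adjusted p 0.0168), and 0.284% of all genes passed that comparison. S6K1i-HDL replicates 1 to 6 and 7 to 9 were also listed apart. Against PBS, Flna stood at 0.79 ± 0.18 and 0.71 ± 0.22 in them, and Tln1 at 0.78 ± 0.19 and 0.64 ± 0.23. Tmsb4x stood at -1.09 ± 0.24 and -0.44 ± 0.31, and Arpc1b at -0.87 ± 0.19 and -0.48 ± 0.24. With replicates 1 to 6 against PBS, 16 of the 45 genes passed (8 higher, 8 lower), beside 12.1% of all genes. With the other 3 replicates 0 passed, beside 0.00861% of all genes. When replicates 1 to 6 were compared directly with 7 to 9, 0 of the 45 and 0 of all 11617 genes passed. The counts against PBS therefore do not show a difference between the sets. Replicates 7 and 9 lay within the PBS range of Rn45s share, and the other S6K1i-HDL libraries lay above it. The part of Rn45s share and of the smaller set in these counts was not tested.

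In TRAF6i-HDL plaque 0 of the 45 genes passed against PBS (edgeR), nor did any with DESeq2 or limma-voom, and 0.0192% of all tested genes did. At an unadjusted p under 0.05, 7 of the 45 were higher and 2 lower, where 6.2% of all tested genes were higher and 4.92% lower, 11.1% in all. The counts of the 45 were 8 higher and 2 lower with DESeq2's size factors, and 1 higher and 2 lower with Rn45s share as a covariate. With GC and length offsets they were 1 higher and 1 lower. The median log2 fold change of the 45 genes was 0.03, and -0.008 with those offsets. Pxn had the smallest p, at 0.53 ± 0.19 (adjusted p 0.295), followed by Tln1 at 0.43 ± 0.17 (0.318) and Ptk2b, the focal adhesion kinase relative of blood cells, at 0.38 ± 0.15 (0.318). Next came Rdx at -0.36 ± 0.14 (0.325), Pfn1 at 0.31 ± 0.13 (0.354), Coro1c at 0.34 ± 0.15 (0.361), Lims1, which binds Ilk, at -0.27 ± 0.12 (0.361) and Zyx at 0.37 ± 0.17 (0.394). Flna stood at 0.13 ± 0.16, Vcl at 0.03 ± 0.16, Ilk at 0.32 ± 0.15, Fermt3 at 0.20 ± 0.18 and Fermt2 at 0.08 ± 0.21. Actb (-0.01 ± 0.23), Actg1 (-0.06 ± 0.14), Tmsb4x (0.07 ± 0.21), Arpc2 (-0.19 ± 0.12), Coro1a (0.02 ± 0.17), Lcp1 (0.15 ± 0.15) and Myh9 (0.05 ± 0.13) completed the examples. Of the further pathway genes, 0 of 113 passed.

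Between inhibitors, Flna was called lower in TRAF6i-HDL than in either of the others, though each call was lost under some other settings. Its level in TRAF6i-HDL was 154.8, 275.0 and 350.9 CPM, with 3 of 10 libraries below the mTORi-HDL range and 8 of 10 below the S6K1i-HDL range. Against mTORi-HDL the log2 fold change was -0.55 ± 0.16 (adjusted p 0.0371, edgeR), and Flna was the 1 gene of the 45 that passed, beside 2.92% of all genes. Arpc3 (0.41 ± 0.13, adjusted p 0.0881), Lims1 (-0.34 ± 0.12, 0.0902) and Vcl (-0.39 ± 0.16, 0.174) came next. Of the other examples, Actg1 (-0.34 ± 0.14), Fermt2 (-0.34 ± 0.20), Myh9 (-0.26 ± 0.13), Tmsb4x (0.24 ± 0.21) and Lcp1 (-0.21 ± 0.15) did not pass. Nor did Coro1a (-0.11 ± 0.16), Tln1 (0.08 ± 0.16), Actb (-0.06 ± 0.23), Ilk (0.03 ± 0.14), Arpc2 (-0.01 ± 0.12) and Fermt3 (0.00 ± 0.16). The Flna call was lost with DESeq2's size factors (-0.52 ± 0.16, adjusted p 0.0541), detected genes as a covariate (-0.47 ± 0.15, 0.0761), GC and length offsets (-0.36 ± 0.14, 0.180) and without the 3 shallow libraries (-0.51 ± 0.16, 0.0540). It was lost without any one of TRAF6i-HDL replicates 3, 5, 6, 7 and 8 or mTORi-HDL replicates 4, 6, 7, 8, 9 and 10, with an adjusted p of up to 0.0887.

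Against S6K1i-HDL, Flna in TRAF6i-HDL was lower at -0.64 ± 0.16 (adjusted p 0.0300, edgeR), while Tmsb4x (0.90 ± 0.22, 0.0264) and Arpc3 (0.62 ± 0.14, 0.0154) were higher. Beside these 3 genes, 1.59% of all genes passed. Tmsb4x had 2913, 4727 and 8850 CPM in TRAF6i-HDL and 1660, 2487 and 4113 CPM in S6K1i-HDL, and 6 of 10 TRAF6i-HDL libraries were above the S6K1i-HDL range. Arpc3 had 57.4, 79.6 and 112.1 CPM against 34.8, 51.9 and 86.9 CPM, with 3 of 10 above the range. Actr2 stood at 0.58 ± 0.19 (adjusted p 0.0950). Coro1a (-0.48 ± 0.17), Fermt3 (-0.31 ± 0.17), Tln1 (-0.31 ± 0.17), Lcp1 (-0.28 ± 0.16), Vcl (-0.26 ± 0.16) and Arpc2 (0.24 ± 0.13) did not pass. Actb (-0.13 ± 0.24), Ilk (-0.10 ± 0.15), Myh9 (-0.03 ± 0.14), Fermt2 (0.03 ± 0.21) and Actg1 (-0.03 ± 0.15) were closer to 0. The Tmsb4x call was lost without TRAF6i-HDL replicate 8 or any one of S6K1i-HDL replicates 2 to 5 (adjusted p of up to 0.0699). The Flna call was lost without the same libraries or TRAF6i-HDL replicates 3 or 6 (up to 0.0648), and the Arpc3 call held without each of the 39. With Rn45s share as a covariate none of the 3 passed (adjusted p 0.265 for Flna, 0.154 for Tmsb4x and 0.0708 for Arpc3), and with GC and length offsets Flna (0.181) and Arpc3 (0.154) did not.

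Between mTORi-HDL and S6K1i-HDL, 1 of the 45 genes passed, beside 6.18% of all genes. Evl was lower in mTORi-HDL, with 6.08, 12.2 and 15.8 CPM against 13.0, 17.4 and 28.6 CPM, and 5 of 10 mTORi-HDL libraries lay below the S6K1i-HDL range. The log2 fold change was -0.73 ± 0.22 (adjusted p 0.0313, edgeR). Rdx (0.43 ± 0.14, adjusted p 0.0516), Arpc5 (0.47 ± 0.15, 0.0526) and Tmsb4x (0.67 ± 0.22, 0.0563) came next, and Flna stood at -0.09 ± 0.16 with a 95% interval of -0.41 to 0.23. Tln1 (-0.38 ± 0.16), Coro1a (-0.38 ± 0.16), Fermt2 (0.37 ± 0.20), Fermt3 (-0.32 ± 0.16), Actg1 (0.30 ± 0.15) and Arpc2 (0.25 ± 0.13) did not pass. Nor did Myh9 (0.22 ± 0.14), Ilk (-0.13 ± 0.14), Vcl (0.12 ± 0.16), Actb (-0.07 ± 0.24) and Lcp1 (-0.07 ± 0.16). The Evl call was lost without any one of mTORi-HDL replicates 1, 3, 5 and 7 or S6K1i-HDL replicates 2, 3, 6 and 8, with an adjusted p of up to 0.0950. It was also lost with Rn45s share (0.0861) and with GC and length offsets (0.157).

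Of the further pathway genes, TRAF6i-HDL against mTORi-HDL gave 4 higher and 8 lower, TRAF6i-HDL against S6K1i-HDL 3 higher and 1 lower, and mTORi-HDL against S6K1i-HDL 4 higher and 3 lower, of 113 tested in each. Of all genes 2.92%, 1.59% and 6.18% passed in these comparisons. Whether the calls of the further genes named below held under other settings was not tested. In TRAF6i-HDL against mTORi-HDL, Aif1 was higher by 1.24 ± 0.22 (adjusted p 0.000362). The WAVE partners Abi3 (0.65 ± 0.15, 0.0110) and Cyfip2 (0.52 ± 0.15, 0.0343) and the blood-cell GTPase gene Rac2 (0.62 ± 0.17, 0.0277) were higher too. Rhoa, encoding the GTPase upstream of the ROCK kinases, was lower (-0.54 ± 0.12, 0.00851), as were Rock2 (-0.40 ± 0.11, 0.0355) and the WAVE partner Nckap1 (-0.50 ± 0.13, 0.0254). Cald1, encoding caldesmon (-0.68 ± 0.18, 0.0248), and the phosphatase gene Ppp1cb (-0.47 ± 0.14, 0.0432) were also lower.

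In TRAF6i-HDL against S6K1i-HDL, Arhgdia was lower (-0.64 ± 0.16, adjusted p 0.0264), and Arpc1a (0.86 ± 0.23, 0.0392), the myosin light chain gene Myl6 (0.51 ± 0.14, 0.0436) and the capping protein gene Capzb (0.47 ± 0.13, 0.0490) were higher. In mTORi-HDL against S6K1i-HDL, Abi3 was lower (-0.82 ± 0.16, 0.000380), with libraries of 37.1 to 59.1 CPM against 64.9 to 103 CPM, and so were Rac2 (-0.60 ± 0.17, 0.0196) and Arhgdia (-0.56 ± 0.16, 0.0200). Myl6 (0.75 ± 0.14, 0.000360), Myl12a (0.59 ± 0.15, 0.00842), Rock2 (0.55 ± 0.11, 0.00137) and Rock1 (0.37 ± 0.11, 0.0319) were higher there. In 2 of the 113 further genes, Abi3 among them, the mTORi-HDL and S6K1i-HDL libraries did not overlap. The share of all genes without overlap was not determined for this comparison.

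**Figure D5:**
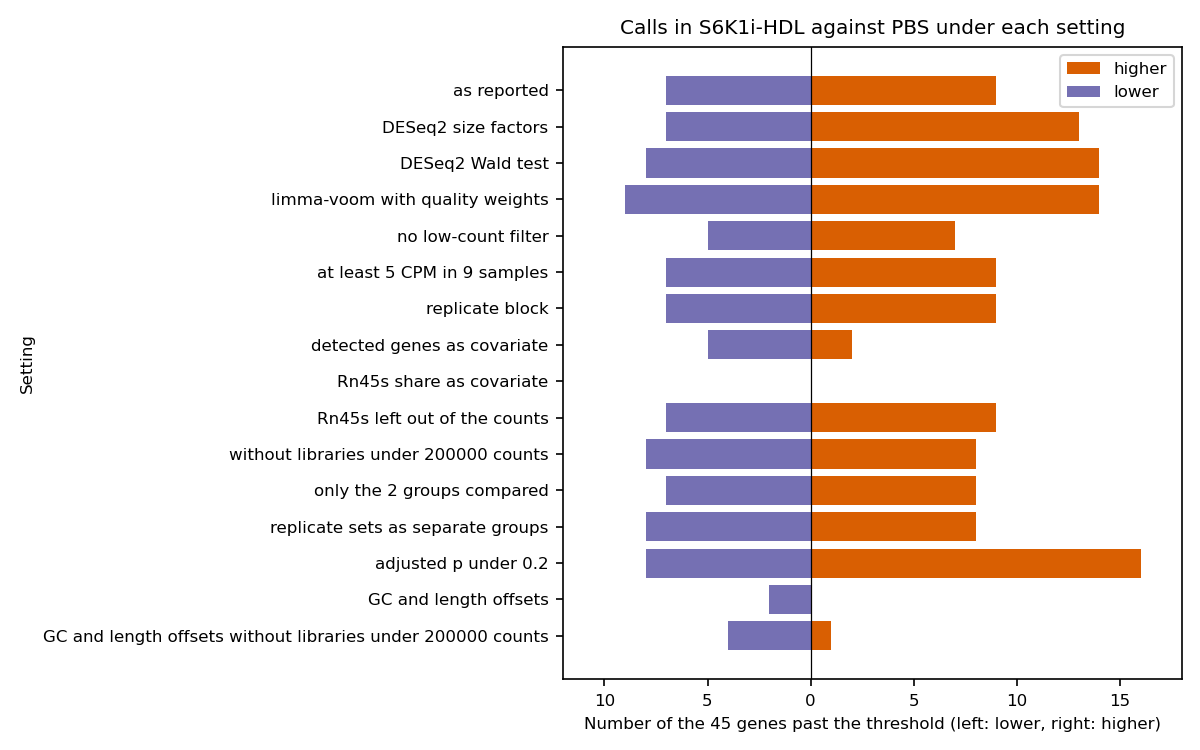
Number of the 45 genes past the threshold in S6K1i-HDL against PBS under each setting, lower to the left and higher to the right. At an adjusted p under 0.05 the counts run from 0 with Rn45s share as a covariate to 9 lower and 14 higher with limma-voom, beside 7 lower and 9 higher as reported. The bar marked adjusted p under 0.2 uses that looser threshold and lies outside this range.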

How the data were processed

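The deposited files hold whole-number read counts per gene, 1 file per sample, with 24062 mouse gene symbols. A further 5 lines at the end of each file tally unassigned reads and stayed out of library sizes and tests. Of all reads tallied in a file, 42.8 to 60.1% matched no counted feature, which does not show that they lay outside genes. Per the submitters' processing notes, the tools named by the authors were HTSeq 0.6.1, Bowtie2 2.2.8 and TopHat2 2.1.0, and the build is given as hg19, a human assembly, although the genes carry mouse symbols. The annotation, strand setting and filters are not given in the sources used here. Per the labels, RNA was amplified from small captured samples, which can amplify transcripts unevenly.

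Counts were fitted in R 4.3.3 with edgeR 4.0.16 (filterByExpr, TMM, glmQLFit and glmQLFTest, robust), with all 39 samples in 4 groups. Benjamini-Hochberg adjustment ran over the 10411 tested genes, and genes passed at an adjusted p under 0.05. CPM levels are TMM-scaled, with a prior count of 2 on the log2 CPM scale. The SE of a log2 fold change is its size divided by the root of F. The code was tested on simulated counts. Transcript lengths, GC content and gene overlaps come from GENCODE M21 (GRCm38) and promoters from RefSeq (GRCm38.p6), so gene lengths may differ from those the authors counted over. Transcripts were matched by symbol for 95.8% of tested genes.

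The named genes were every member past the threshold, the 8 with the smallest p in each comparison with PBS, the 4 in each pair of inhibitors, 13 examples of the roles in every comparison, and up to 10 further pathway genes past the threshold. One gene that this rule names is not reported here. The members, lists and tests were chosen with earlier results of these data known. Alternatives used limma 3.58.1, DESeq2 1.42.0, other filters, covariates for Rn45s share and detected genes, a replicate block, and fits without each library. The GC and length offsets were added after the data were seen. No pair of libraries in a group agreed within sampling noise, the closest having a chi-square of 2.39 per degree of freedom. Python 3.11.15 with matplotlib 3.10.9 drew the figures.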

Additional observations from a re-analysis of the deposited data

Results flagged for a closer look

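Within each group, the highest and lowest library of each gene were compared with the rest, and 30 of 180 groups held a library set apart from its group by a wide gap. Chance flags about 1 in 20 such groups. Of the 30, 17 fell in the 3 libraries under 200000 counts, where levels rest on few reads. The values below are TMM-scaled CPM.

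PBS replicate 9, the library of 50091 counts, stood apart on the low side at 139 CPM for Cfl1 (group median 478 CPM) and at 0 CPM for Was, Coro1b, Fermt3 and Vasp. In TRAF6i-HDL replicate 7, of 66602 counts, the low values were 9.68 CPM for Arpc4 and for Zyx, 29.0 CPM for Coro1b and for Ilk, 0 CPM for Evl and 58.1 CPM for Capg. In S6K1i-HDL replicate 1, of 118527 counts, Parva was high at 87.0 CPM, as were Ptk2 and Vasp at 47.4 CPM each. There Actn1 was low at 79.1 CPM, Lcp1 at 616.7 CPM and Capg at 55.3 CPM.

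TRAF6i-HDL replicate 8 was high for Arpc1b at 635 CPM (group median 299 CPM) and for Gsn at 284 CPM. It was low for Wasf2 at 24.2 CPM, Parvb at 0 CPM and Ptk2 at 6.60 CPM. In mTORi-HDL replicate 5, Cfl1 was high at 745 CPM (group median 336 CPM) and Arpc1b at 473 CPM (group median 262 CPM), while Tln1 was low at 93.4 CPM and Capg at 90.0 CPM. Actr3 was low in mTORi-HDL replicate 8 at 209 CPM. Flna was low in S6K1i-HDL replicate 9 at 334 CPM, the library that overlapped the PBS range. Plek was high in S6K1i-HDL replicate 8 at 768 CPM, and Actn1 was high in PBS replicate 1 at 259 CPM.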

How the results depend on the processing

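The number of the 45 genes called depended on the setting. In S6K1i-HDL against PBS it was 7 with detected genes as a covariate, 0 with Rn45s share as a covariate, 2 with GC and length offsets, and 5 with those offsets and without the 3 libraries under 200000 counts (shallow below), beside 16. In mTORi-HDL against PBS it was 2 with DESeq2's Wald test, 3 with limma-voom, 9 at an adjusted p under 0.2, and 0 with detected genes, Rn45s share or either form of the offsets, beside 1. In TRAF6i-HDL against mTORi-HDL it was 2 with DESeq2's Wald test, 3 with limma-voom, 6 at an adjusted p under 0.2, and 0 with the replicate block, detected genes, either offset form or without the shallow libraries, beside 1. In TRAF6i-HDL against S6K1i-HDL it was 6 with limma-voom, 8 at an adjusted p under 0.2, 0 with Rn45s share and 1 with either offset form, beside 3. In mTORi-HDL against S6K1i-HDL it was 2 with DESeq2's size factors, no filter, Rn45s share or the offsets without the shallow libraries, 3 with DESeq2's Wald test or the replicate block, 4 with detected genes or replicate sets as groups, 7 with only the 2 groups compared, 11 with limma-voom, 13 at an adjusted p under 0.2 and 0 with the offsets, beside 1. The causes were not tested.

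Without each library in turn, the counts ran from 10 to 22 in S6K1i-HDL and from 1 to 2 in mTORi-HDL against PBS, and stayed 0 in TRAF6i-HDL. They ran from 0 to 2, 1 to 4 and 0 to 4 in the 3 pairs of inhibitors in the order above. Directions turned in S6K1i-HDL against PBS for Arpc4 (-0.028) and Pxn (-0.033) with Rn45s share, and for Myh9 with the offsets and without the shallow libraries (-0.47 ± 0.13, adjusted p 0.0289). Samples with the same replicate number did not deviate together (57 pairs, correlation of deviations -0.21 to 0.29, 7 pairs over 0.1), and 6 libraries correlated best with their own number. The replicate block left 16 calls in S6K1i-HDL against PBS, 14 of them shared. Under the block Flna in TRAF6i-HDL against mTORi-HDL (adjusted p 0.0566) and Tmsb4x in TRAF6i-HDL against S6K1i-HDL (0.0561) were no longer called.

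Over all genes, the count past the threshold moved by more than 1.5 times in these settings. In S6K1i-HDL against PBS it was 1922 with limma-voom, 350 with detected genes, 38 with Rn45s share, 523 with the offsets and 658 with the offsets and without the shallow libraries, beside 1242. In mTORi-HDL against PBS it was 407 with DESeq2's Wald test, 368 with limma-voom, 82 with detected genes, 21 with Rn45s share and 93 with only the 2 groups compared, beside 171. In TRAF6i-HDL against PBS it was 49 with DESeq2's Wald test, and 0 or 1 in 8 other settings, beside 2. In TRAF6i-HDL against mTORi-HDL limma-voom gave 606, beside 304. In TRAF6i-HDL against S6K1i-HDL it was 348 with DESeq2's Wald test, 688 with limma-voom, 84 with the replicate block, 66 with detected genes, 30 with Rn45s share, 283 with only the 2 groups compared, 269 with replicate sets as groups and 96 with the offsets, beside 166. In mTORi-HDL against S6K1i-HDL it was 1850 with limma-voom and 1094 with only the 2 groups compared, beside 643. With DESeq2's size factors the share of higher calls among all genes was 58.3% in place of 45.7% in S6K1i-HDL against PBS, 64.8% in place of 53.3% in TRAF6i-HDL against mTORi-HDL, and 40.6% in place of 56.6% in mTORi-HDL against S6K1i-HDL. In PBS replicate 9, of 50091 counts, 0 counts were found for Was, Coro1b, Fermt3 and Vasp, so changes of genes at that level were not detectable there.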
